A study of Drosophila melanogaster with 6 samples.

Results

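The synaptic vesicle release machinery was followed through 10 Drosophila melanogaster genes, nSyb, Syt1, brp, Syx1A, Snap25, cpx, Csp, unc-13, Rim and Syn, taken by gene symbol. Each symbol matched 1 of the 17490 gene rows of the deposited count table, and all 10 genes passed the filter on low counts, which left 10211 genes for testing. RNA came from brains of larvae at the 3rd instar carrying elav-Gal4, which drives transgenes in neurons and here directed RNAi against DMAP1. The DMAP1 protein belongs to the chromatin remodelling complex of Tip60 and Domino, and cells of the brain other than neurons need not carry the knockdown. The labels hold 6 samples of this genotype and no other, so every library carried the driver and DMAP1 RNAi. The column names divide the 6 libraries into a DMAP1RNAi63666 series and a DMAP1RNAi103734 series, each with libraries numbered 1 to 3, and the labels leave these stems unexplained. The labels also do not say how many animals went into a library or whether the libraries came from separate animals, so a p-value here rests on the spread between libraries alone, and that spread may be technical. The 3 further columns named as wild type matched no labelled sample and were not used here. The values below are therefore levels and differences among DMAP1 RNAi brains, and no effect of the knockdown on the release genes is given.

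A synaptic vesicle fuses with the presynaptic membrane when the vesicle SNARE protein zips together with the SNARE proteins of the target membrane. Synaptotagmin senses calcium, complexin binds the assembled SNARE bundle, and Unc-13, Rim and Bruchpilot organise the active zone, where vesicles are docked and made ready for release. Synapsin holds vesicles in a reserve pool, and cysteine string protein acts as a chaperone on the vesicle. In the fly brain these genes are widely used as markers of differentiated neurons and their synapses.

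All 10 transcripts lay above the median tested gene by level per gene length. Their mean levels ran from 1.72 times that median in Rim, the lowest, to 18.7 times in nSyb, the highest. They also moved together among the libraries. Each of the 10 genes was highest in library 1 of the DMAP1RNAi63666 series and lowest in library 2 of the DMAP1RNAi103734 series. Of all tested genes, 13.9% did both. Between the series as wholes, 0 of the 10 genes passed the test, against 1.55% of all tested genes.

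The library totals ranged from 31518485 to 37236953 counts, and the release genes had between 5708 and 84087 counts per library, so that counting error was small beside the spread between libraries. DMAP1, the RNAi target, stood at 10.8, 12.2 and 11.9 TPM (a count corrected for gene length and for the library total) in DMAP1RNAi63666 libraries 1 to 3, against 18.6, 19.7 and 17.0 TPM in DMAP1RNAi103734 libraries 1 to 3. The log2 fold change was -0.62 (SE 0.12, edgeR adjusted p = 0.0453). Library 2 of the DMAP1RNAi103734 series stood apart in its fat body markers, whose summed level was 557 CPM (counts scaled to the library total, with no length correction), against 34.4 to 146 CPM over the other libraries of both series. Mitochondrial transcripts took 10.9, 8.85 and 8.18% of the counts in DMAP1RNAi63666 libraries 1 to 3, against 6.98, 6.88 and 7.1% in DMAP1RNAi103734 libraries 1 to 3. The share was thus highest in library 1 of the DMAP1RNAi63666 series, and the series did not overlap.

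The core fusion complex is built from the vesicle SNARE nSyb and the target-membrane SNAREs Syx1A and Snap25. nSyb (FBgn0013342, chromosome 3L, 1630348 to 1637752, minus strand) had 732, 575 and 532 TPM in DMAP1RNAi63666 libraries 1 to 3, against 582, 433 and 568 TPM in DMAP1RNAi103734 libraries 1 to 3. Its highest and lowest libraries belonged to different series, while the remaining libraries of both series lay close together. With a mean of 571 ± 96.7 TPM (SD, n = 6) it ranked 198 of the 10211 tested genes, 18.7 times the median tested gene of 30.4 TPM. Snap25 (FBgn0011288, chromosome 3L, 24074180 to 24299205, plus strand) had 521, 363 and 326 TPM in DMAP1RNAi63666 libraries 1 to 3, against 345, 260 and 336 TPM in DMAP1RNAi103734 libraries 1 to 3. One library of the DMAP1RNAi63666 series was well above all others, and the groups overlapped. Syx1A (FBgn0013343, chromosome 3R, 24101600 to 24105763, minus strand) had 174, 155 and 165 TPM in the DMAP1RNAi63666 libraries, against 172, 132 and 141 TPM in the DMAP1RNAi103734 libraries. Its mean of 157 ± 17.2 TPM (SD, n = 6) carried the smallest spread of the 10 genes relative to level, and the groups overlapped.

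SNARE transcripts were unequal in level. nSyb exceeded Syx1A by a TPM ratio of 3.64 ± 0.41 (SD, n = 6) and Snap25 by 1.61 ± 0.11. The nSyb to Syx1A ratio overlapped between the series. The nSyb to Snap25 ratio was 1.41, 1.59 and 1.63 in the DMAP1RNAi63666 libraries, against 1.69, 1.66 and 1.69 in the DMAP1RNAi103734 libraries. The lowest ratio was that of the library where both genes were highest. Syx1A shares 447 of its 2832 exon bases (15.8%) with eIF4EHP on the same strand, and read pairs that could belong to both genes were not counted. The Syx1A length used for TPM includes those bases, and the number of read pairs left out is not shown by the table.

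Complexin and synaptotagmin act on this complex. cpx (FBgn0041605, chromosome 3R, 4280221 to 4304604, plus strand), whose protein both restrains spontaneous fusion and promotes evoked fusion, had 563, 399 and 386 TPM in DMAP1RNAi63666 libraries 1 to 3, against 379, 278 and 357 TPM in DMAP1RNAi103734 libraries 1 to 3. Every DMAP1RNAi63666 library lay above every DMAP1RNAi103734 library, although the nearest values were 386 and 379 TPM. Syt1 (FBgn0004242, chromosome 2L, 2772327 to 2799979, minus strand), the calcium sensor for fast release, had 331, 251 and 240 TPM in the DMAP1RNAi63666 libraries, against 293, 210 and 263 TPM in the DMAP1RNAi103734 libraries. For Syt1 the groups overlapped widely, with library 1 of the DMAP1RNAi103734 series second highest of all 6. The cpx to nSyb ratio was 0.770, 0.694 and 0.726 in the DMAP1RNAi63666 libraries, against 0.651, 0.643 and 0.628 in the DMAP1RNAi103734 libraries, with no overlap. The Syt1 to nSyb ratio went the other way, at 0.452, 0.436 and 0.451 in the DMAP1RNAi63666 libraries, against 0.503, 0.485 and 0.462 in the DMAP1RNAi103734 libraries. A lack of overlap also held for 31.4% of the ratios between any pair of tested genes with a count in every library.

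Among the active zone genes, brp and Rim were the least abundant of the 10 per length. unc-13 (FBgn0025726, chromosome 4, 867824 to 912331, minus strand), the vesicle priming factor, had 205, 166 and 161 TPM in DMAP1RNAi63666 libraries 1 to 3, against 172, 130 and 153 TPM in DMAP1RNAi103734 libraries 1 to 3. brp (FBgn0259246, chromosome 2R, 9503765 to 9541565, plus strand), the scaffold protein of the T-shaped presynaptic density, had 132, 102 and 108 TPM in the DMAP1RNAi63666 libraries, against 114, 87.1 and 98.8 TPM in the DMAP1RNAi103734 libraries. Rim (FBgn0053547, chromosome 3R, 17872748 to 17916578, minus strand), which links vesicles and calcium channels at the active zone, had 64.2, 51.2 and 47.6 TPM in the DMAP1RNAi63666 libraries, against 59.5, 41.8 and 50.7 TPM in the DMAP1RNAi103734 libraries. All 3 genes overlapped between the series and kept the same high and low library. The proportion of these transcripts to each other was steady, the brp to unc-13 ratio being 0.651 ± 0.022 and the Rim to unc-13 ratio 0.319 ± 0.018 (SD, n = 6). The Rim to unc-13 ratio was 0.312, 0.308 and 0.297 in the DMAP1RNAi63666 libraries, against 0.346, 0.321 and 0.331 in the DMAP1RNAi103734 libraries. The brp to unc-13 ratio overlapped between the series. CR43361, asRNA:CR43425 and asRNA:CR44029 overlap unc-13 exons on the opposite strand, and their strand-specific counts were 0.315 to 1.58% of the unc-13 count.

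Csp and Syn encode proteins of the vesicle itself. Csp (FBgn0004179, chromosome 3L, 22267382 to 22273745, plus strand), the cysteine string chaperone, had 379, 290 and 314 TPM in DMAP1RNAi63666 libraries 1 to 3, against 297, 250 and 285 TPM in DMAP1RNAi103734 libraries 1 to 3. On TPM the groups overlapped, library 2 of the DMAP1RNAi63666 series lying below library 1 of the DMAP1RNAi103734 series. Syn (FBgn0004575, chromosome 3R, 10190689 to 10222442, plus strand), which encodes synapsin, had 276, 214 and 219 TPM in the DMAP1RNAi63666 libraries, against 222, 165 and 216 TPM in the DMAP1RNAi103734 libraries. Apart from the high and the low library, the remaining 4 values of Syn lay between 214 and 222 TPM.

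**Figure D1:**
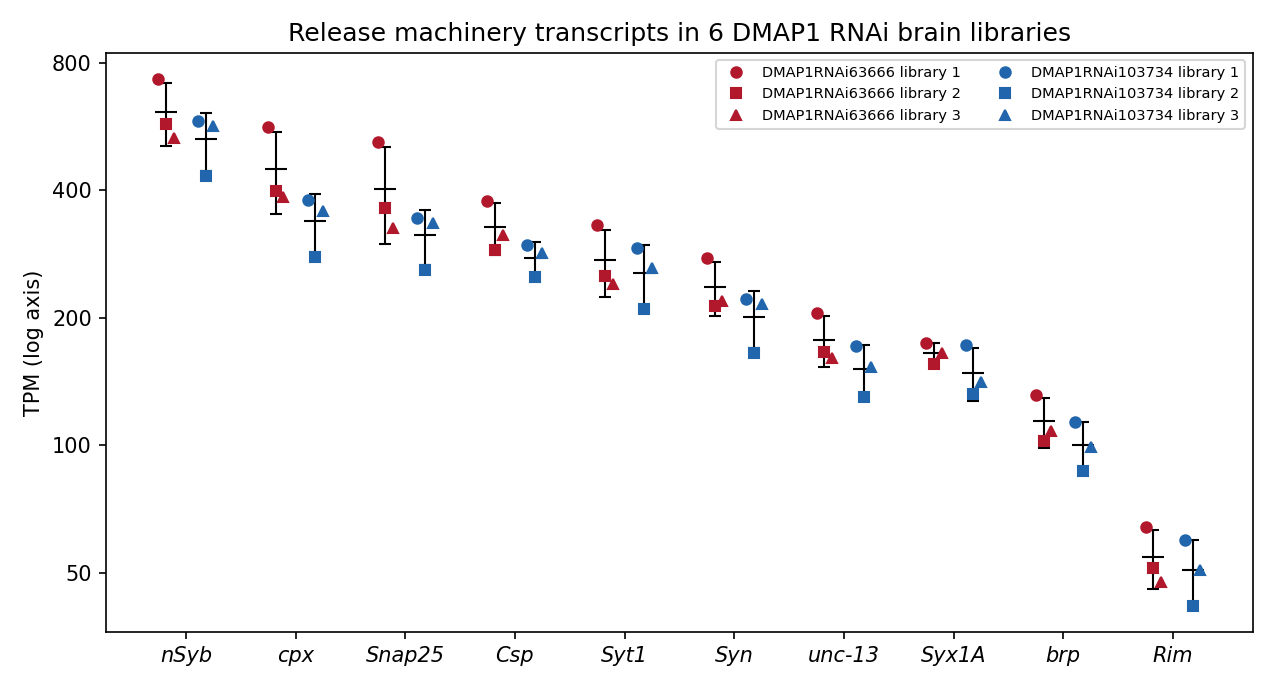
TPM of the 10 release genes on a log axis, by gene in order of mean level, with the DMAP1RNAi63666 libraries (red) left of the DMAP1RNAi103734 libraries (blue); bars are the mean ± SD of each series (n = 3). Library 1 of the DMAP1RNAi63666 series (red circle) is the highest point and library 2 of the DMAP1RNAi103734 series (blue square) the lowest for every gene.

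By mean TPM the order was nSyb (571), cpx (394), Snap25 (358), Csp (302), Syt1 (264), Syn (219), unc-13 (164), Syx1A (157), brp (107) and Rim (52.5), a span of 10.9-fold. In 8 of the 9 pairs of neighbours the same gene was higher in 6 of 6 libraries (exact two-sided sign-flip permutation p = 0.03125 each, the smallest that 6 libraries allow, adjusted p = 0.0352 over the 9 pairs). The exception was unc-13 and Syx1A, which differed by 0.07 ± 0.11 on the log2 scale (SD, n = 6) with each gene higher in 3 libraries (exact p = 0.25, adjusted p = 0.25). The smallest of the other steps was cpx over Snap25, 0.14 ± 0.06 on the log2 scale, and the largest was brp over Rim, 1.03 ± 0.09. The order was read from the libraries it was tested in. It rests on the length correction: with CPM in place of TPM, 4 of the 9 pairs kept the same gene higher in every library.

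The genes are longer than most tested genes, a property that the choice by symbol did not use. Their merged exon length had a median of 7628.5 bases, against 2091 over all tested genes, and all 10 lay above that median. The span on the chromosome ranged from 4164 bases in Syx1A to 225026 bases in Snap25, where exons make up 1.01% of the span, and the median tested gene spanned 2827 bases. The median number of merged exon blocks was 11.5, against 4 over all tested genes, and 9 of the 10 lay above 4, the exception being Syx1A with 2 blocks. The current annotation lists up to 21 transcripts for cpx and a median of 7.5 for the 10 genes, against 2 for all tested genes. The counts are summed per gene, so isoforms were not told apart.

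Deviations from each gene's own mean were taken on log2 CPM with TMM scaling. In library 1 of the DMAP1RNAi63666 series all 10 genes were above their means, by 0.24 in Syx1A to 0.65 in Snap25, with a mean over the genes of 0.44. In library 2 of the DMAP1RNAi103734 series all 10 were below, from -0.24 in Syx1A to -0.48 in cpx, with a mean of -0.35. In the remaining libraries the mean deviation was 0.02 (DMAP1RNAi63666 library 2), -0.06 (DMAP1RNAi63666 library 3), 0.03 (DMAP1RNAi103734 library 1) and -0.08 (DMAP1RNAi103734 library 3). Of all tested genes, 29.5% were highest in the first of these libraries, 21.5% were lowest in the second, and 13.9% did both, as all 10 release genes did. The median tested gene deviated by at most 0.01 in any library, a value that the TMM scaling itself holds near 0. Both shifts set a library apart from the other libraries of its own series, and the labels are the same for all 6 libraries. In bulk samples such as these, fewer cells of a type and less RNA per cell cannot be told apart.

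The size of the movement differed from gene to gene more than its direction. The SD of log2 CPM over the 6 libraries was 0.36 in cpx and 0.36 in Snap25, 0.27 in nSyb and 0.18 in Syx1A, with a median of 0.25 over the 10 genes and 0.21 over all tested genes. Each gene was set against the mean profile of the other 9 by the root mean square difference over the 6 libraries. That difference was smallest in unc-13 (0.03) and Syn (0.04) and largest in Syx1A, Snap25 and cpx (0.13, 0.12 and 0.12). The median tested gene differed from the profile of the release genes by 0.30, and 7.04% of the other tested genes lay as close as Syx1A or closer. Of the 45 pairs among the 10 genes, 19 had a TPM ratio whose SD over the libraries was under 0.1 log2 units, and the median SD was 0.11. Without library 1 of the DMAP1RNAi63666 series the distance from the highest to the lowest library, on the mean deviation of the 10 genes, was 0.37, against 0.79 with it. Without library 2 of the DMAP1RNAi103734 series it was 0.52.

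**Figure D2:**
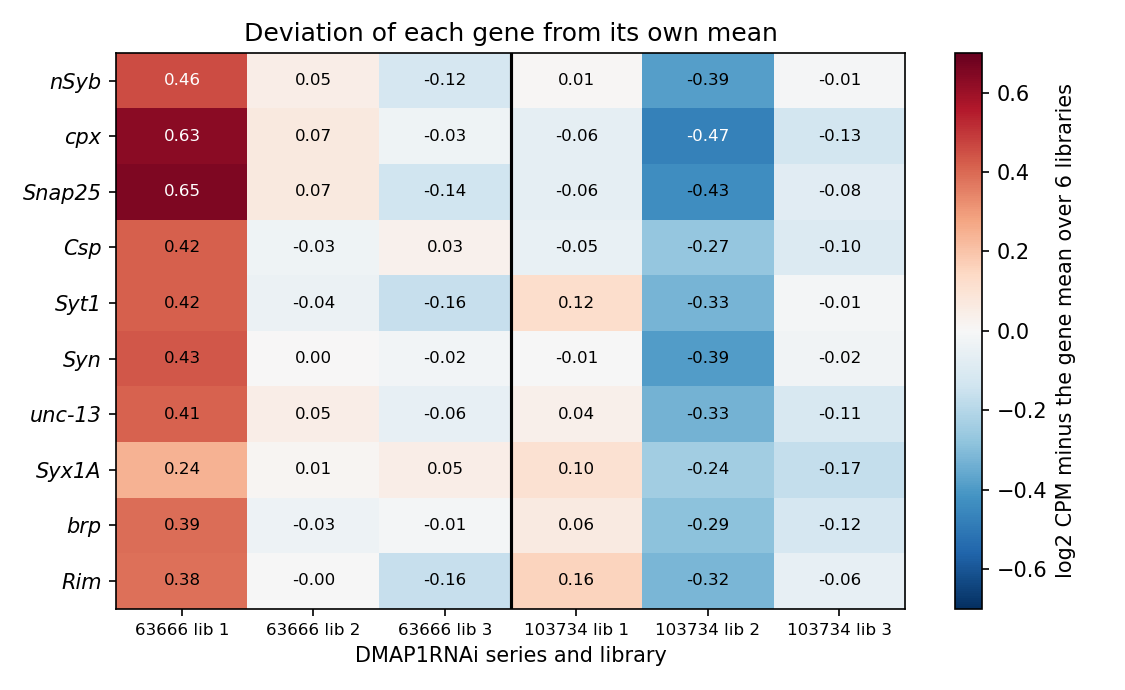
Deviation of log2 CPM from each gene's mean over the 6 libraries, with genes down the page in order of level and the DMAP1RNAi63666 libraries left of the DMAP1RNAi103734 libraries. The first column is positive for all 10 genes and the fifth column negative for all 10, while the other 4 columns lie between -0.17 and 0.16.

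General neuron markers moved with the release genes, and the summed glia markers had the same high and low library. The 7 neuron markers elav, fne, Rbp9, Appl, futsch, nrv3 and CadN summed to 9245, 7454 and 7774 CPM in DMAP1RNAi63666 libraries 1 to 3, against 7620, 6163 and 6788 CPM in DMAP1RNAi103734 libraries 1 to 3. On TMM-scaled log2 CPM all 7 were highest in library 1 of the DMAP1RNAi63666 series and 6 of 7 lowest in library 2 of the DMAP1RNAi103734 series. On TPM, Appl and futsch were instead highest in library 1 of the DMAP1RNAi103734 series. The sum of the neuroblast markers did not follow this pattern. Their 6 genes summed to 496, 501 and 460 CPM in the DMAP1RNAi63666 libraries, against 507, 532 and 510 CPM in the DMAP1RNAi103734 libraries. Singly, on TMM-scaled log2 CPM, 3 of the 6 were highest in library 1 of the DMAP1RNAi63666 series. In library 2 of the DMAP1RNAi103734 series 1 of the 6 was lowest. The 9 glia markers summed to 6647, 5873 and 6079 CPM in the DMAP1RNAi63666 libraries, against 5435, 5222 and 5709 CPM in the DMAP1RNAi103734 libraries. Their sum was thus highest and lowest in the same libraries as the release genes, and of the single glia markers 5 of 9 were highest and 4 of 9 lowest there. No gene of these 3 lists was at 0.

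Set against 6 of the 7 neuron markers of the same library, fne being the exception, the release genes varied less. Neuroblast and glia markers were not subtracted in this way, so this is not shown to be particular to neuron markers. On TPM the neuroblast marker ase and the glia marker Eaat1 had the high and low library of the release genes. The neuroblast marker mira and the glia marker loco were instead lowest in library 1 of the DMAP1RNAi63666 series. The mean log2 TPM of the 10 genes ranged over 0.71 between libraries. After subtraction of elav it ranged over 0.35, of CadN 0.35, of Appl 0.43, of futsch 0.43 and of Rbp9 0.25, and after subtraction of nrv3 or fne over 0.50 or 0.73. Relative to elav, which encodes a neuronal RNA-binding protein, the release genes stood at 0.57, 0.50 and 0.32 in the DMAP1RNAi63666 libraries, against 0.68, 0.36 and 0.53 in the DMAP1RNAi103734 libraries. On that scale library 1 of the DMAP1RNAi103734 series was the highest and library 3 of the DMAP1RNAi63666 series the lowest. The markers differed in this. Relative to Rbp9 and Appl, library 1 of the DMAP1RNAi63666 series stayed highest and library 2 of the DMAP1RNAi103734 series lowest, and relative to futsch and CadN the first of these stayed highest. Relative to nrv3 the order was turned round, with library 2 of the DMAP1RNAi103734 series highest and library 1 of the DMAP1RNAi63666 series lowest, and relative to fne library 1 of the DMAP1RNAi63666 series was also lowest. Relative to the median neuron marker, the release genes ran from 1.81 ± 0.19 log2 units above it in nSyb to -1.63 ± 0.16 in Rim (SD, n = 6).

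Markers of other tissues also differed among these libraries. The 6 fat body markers, 5 of which passed the filter, summed to 146, 34.4 and 71.4 CPM in DMAP1RNAi63666 libraries 1 to 3, against 43.5, 557 and 79.9 CPM in DMAP1RNAi103734 libraries 1 to 3. The 6 muscle markers summed to 144, 244 and 512 CPM in the DMAP1RNAi63666 libraries, against 364, 419 and 245 CPM in the DMAP1RNAi103734 libraries. The ring gland markers, 4 of 5 with a row, summed to 111, 134 and 203 CPM in the DMAP1RNAi63666 libraries, against 93.6, 143 and 94.3 CPM in the DMAP1RNAi103734 libraries. The 4 eye disc markers summed to 49.7 to 60.6 CPM in the DMAP1RNAi63666 libraries, against 59.4 to 74.4 CPM in the DMAP1RNAi103734 libraries. Thus the library with the lowest release gene levels had the highest fat body and eye disc sums, and the library with the highest release gene levels had the lowest muscle sum. The latter library also had a fat body sum of 146 CPM, above all but the 557 CPM of the former. Muscle and ring gland sums were highest in library 3 of the DMAP1RNAi63666 series. Gene length moved with the libraries as well: the median deviation of tested genes with at least 2920 exon bases, which include 8 of the 10 release genes, was 0.06 in library 1 of the DMAP1RNAi63666 series and -0.05 in library 2 of the DMAP1RNAi103734 series. The part of other tissues and of gene length in the levels of the release genes was not tested.

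The other genes of the vesicle cycle were described by 5 lists, whose highest and lowest libraries were read on TMM-scaled log2 CPM. No gene of any of the 5 lists passed the test between the series in edgeR, against 1.55% of all tested genes. An unadjusted p under 0.05 was found for 24.6% of all tested genes. In the lists it was found for 3 of 13 endocytosis genes, 2 of 8 SNARE and fusion genes, 1 of 12 active zone genes, 0 of 12 vesicle genes and 0 of 7 synaptotagmins. Of the active zone genes, 10 of 12 were highest in library 1 of the DMAP1RNAi63666 series and 10 of 12 lowest in library 2 of the DMAP1RNAi103734 series. Its most abundant genes were unc-104, the kinesin that carries vesicle precursors down the axon (374 ± 40.2 TPM, SD, n = 6), and RhoGAP100F, the fly Syd-1 protein of active zone assembly (120 ± 13.8 TPM). Of the vesicle genes, 7 of 12 were highest and 8 of 12 lowest in those libraries, led by Rab3, a small GTPase of synaptic vesicles (386 ± 62.8 TPM), and Vmat, the vesicular monoamine transporter (280 ± 46.4 TPM).

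Other synaptotagmins were highest in library 1 of the DMAP1RNAi63666 series in 6 of 7 cases and lowest in library 2 of the DMAP1RNAi103734 series in 6 of 7. Syt4 had the highest mean of them (257 ± 29.5 TPM, SD, n = 6), close to that of Syt1, with a log2 fold change between the series of -0.19 (SE 0.11, edgeR adjusted p = 0.306), and Syt7 stood at 144 ± 32.3 TPM. The endocytosis genes, led by shi, the fly dynamin (270 ± 28.3 TPM), and Chc, the clathrin heavy chain (254 ± 17.8 TPM), were highest in 5 of 13 cases and lowest in 8 of 13 in those libraries. stnA and stnB were at 0 in every library, where each shares all of its 8332 annotated exon bases with the other and shared read pairs were not counted.

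On the list mean, the remaining SNARE and fusion genes moved least of the 5 lists in those libraries. That mean joins genes of opposite direction. Snap29 was lowest, at 48.6 TPM, in library 1 of the DMAP1RNAi63666 series and highest, at 71.5 TPM, in library 2 of the DMAP1RNAi103734 series. Of 8 tested genes, 3 were highest and 3 lowest in those libraries, and the mean deviation of the list was 0.04 and -0.03 there, against 0.44 and -0.35 for the release genes. alphaSnap and Rop, which encode the adaptor of SNARE disassembly and the Sec1/Munc18 protein of fusion, stood at 348 ± 29.9 and 263 ± 20.8 TPM (SD, n = 6). The paralogues Syb and Snap24 were chosen after their values were seen. Snap24 had the same high and low library as the release genes, at 130, 113 and 114 TPM in the DMAP1RNAi63666 libraries, against 105, 95.8 and 106 TPM in the DMAP1RNAi103734 libraries, whereas Syb was highest, at 137 TPM, in library 2 of the DMAP1RNAi103734 series. The nSyb to Syb TPM ratio was 6.01, 4.77 and 4.08 in the DMAP1RNAi63666 libraries, against 4.86, 3.15 and 5.04 in the DMAP1RNAi103734 libraries. The Snap25 to Snap24 ratio was 4.00, 3.21 and 2.85 in the DMAP1RNAi63666 libraries, against 3.28, 2.72 and 3.15 in the DMAP1RNAi103734 libraries. Syb and Snap24 encode the more broadly expressed relatives of nSyb and Snap25. Both ratios were highest and lowest in the same libraries as the release genes.

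**Figure D3:**
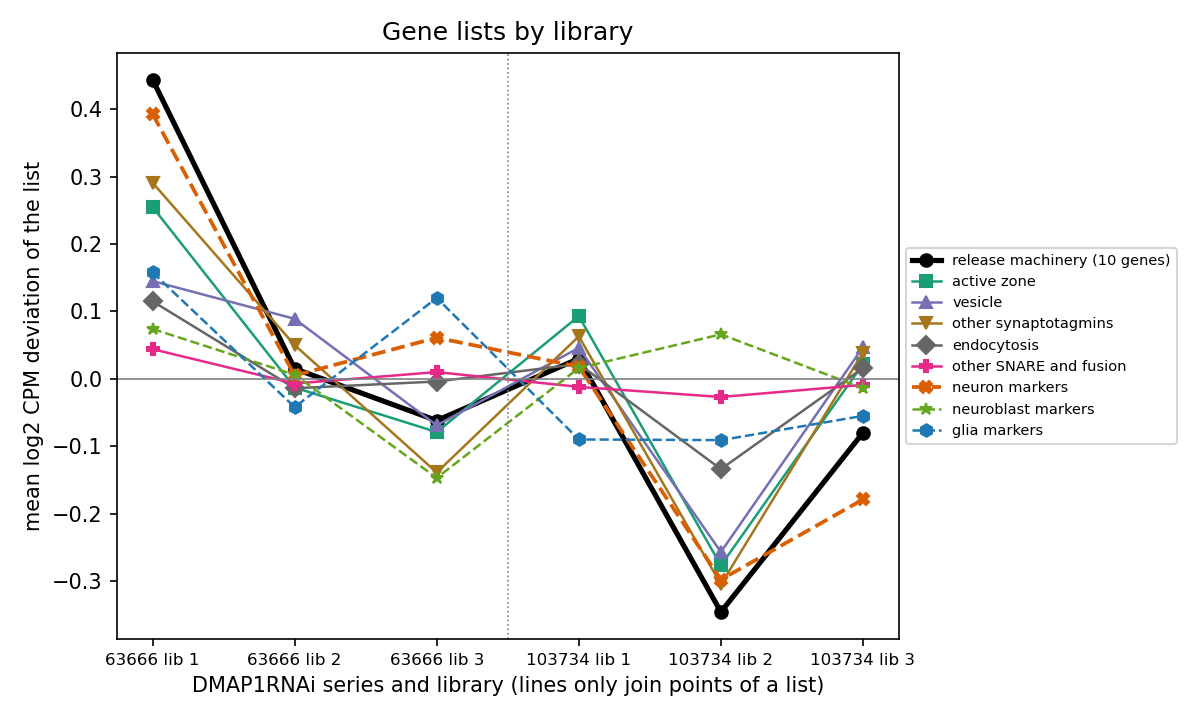
Mean log2 CPM deviation of each gene list from its genes' own means (y axis) in the DMAP1RNAi63666 libraries (left) and the DMAP1RNAi103734 libraries (right); lines only join the points of a list. The release genes and the neuron markers run from above 0.39 in the first library to below -0.29 in the fifth, whereas the other SNARE and fusion genes stay between -0.03 and 0.05.

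The genes outside the 10 with the profile most like theirs over the 6 libraries were Pvf3, Rab3, bma, qvr, orb, Mid1, Rbp and dpr18. Likeness was the root mean square difference from the mean profile of the release genes, which was 0.02 to 0.03 log2 units for these 8 genes. Rab3 and Rbp, the RIM-binding protein of the active zone, belong to the vesicle and active zone lists. qvr encodes a membrane-anchored regulator of potassium channels, dpr18 a cell surface recognition protein of the immunoglobulin class, Pvf3 a growth factor ligand and orb an RNA-binding protein. Their mean levels ran from 10.7 ± 1.86 TPM in orb to 386 ± 62.8 TPM in Rab3 (SD, n = 6). These genes were picked from all tested genes for this likeness, which is a description of 6 libraries.

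The comparison of the series asks whether the release genes differ between brains of the DMAP1RNAi63666 and the DMAP1RNAi103734 columns. With edgeR's quasi-likelihood method and adjustment over all tested genes, 0 of the 10 reached an adjusted p under 0.05, against 1.55% of all tested genes (0.872% higher and 0.676% lower in the DMAP1RNAi63666 series). One gene, cpx, had an unadjusted p under 0.05, as did 24.6% of all tested genes. DESeq2 also called 0 of the 10 at an adjusted p under 0.05, against 9.39% of the genes it gave an adjusted p. All 10 log2 fold changes were positive, from 0.15 in Rim to 0.46 in cpx, with a median of 0.27, while the median over all tested genes was 0.00 and 50.1% of them were above 0. The TMM scaling itself holds the median over all tested genes near 0. Since the release genes moved together within the series, their 10 signs are not independent of each other.

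cpx had a log2 fold change of 0.46 (SE 0.20, 95% interval 0.01 to 0.92, adjusted p = 0.197), that is 1.38-fold with an interval from 1.01 to 1.89. Snap25 followed at 0.42 (SE 0.21, interval -0.05 to 0.89, adjusted p = 0.245) and Csp at 0.29 (SE 0.14, interval -0.02 to 0.60, adjusted p = 0.23). For the genes nearest to 0, Rim and Syt1, the intervals ran from -0.24 to 0.54 and from -0.26 to 0.57 (adjusted p = 0.597 and 0.616). Differences of up to 1.45-fold in Rim and 1.48-fold in Syt1 therefore lie within these intervals, and the adjusted p does not show that the series were alike. On TMM-scaled log2 CPM the libraries of the series did not overlap in 2 of the 10 genes, cpx and Csp, both higher in the DMAP1RNAi63666 series, and 17.0% of all tested genes did the same. The TPM values of Csp, which take no TMM factor, did overlap. No member was lower without overlap, against 16.5% of all tested genes.

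The difference depended on single libraries. The median log2 fold change of the 10 genes was 0.12 when DMAP1RNAi63666 library 1 was left out and 0.16 when DMAP1RNAi103734 library 2 was. Without DMAP1RNAi63666 library 1, Syt1 and Rim changed sign, to -0.05 and -0.03. Within the proportions of the release genes, 12 of the 45 TPM ratios did not overlap between the series, while 31.4% of the ratios between any pair of tested genes with a count in every library did not. Of the 12, 5 involved cpx, which takes part in 9 of the 45 pairs. cpx was higher in the DMAP1RNAi63666 libraries relative to nSyb, Syt1, Syn, unc-13 and Rim in all 3 libraries. Syt1 was lower there relative to nSyb, cpx, Snap25, Syn and unc-13, also without overlap. With 3 libraries against 3, the smallest exact permutation p is 0.1, and the ratios are given as values with no test.

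**Figure D4:**
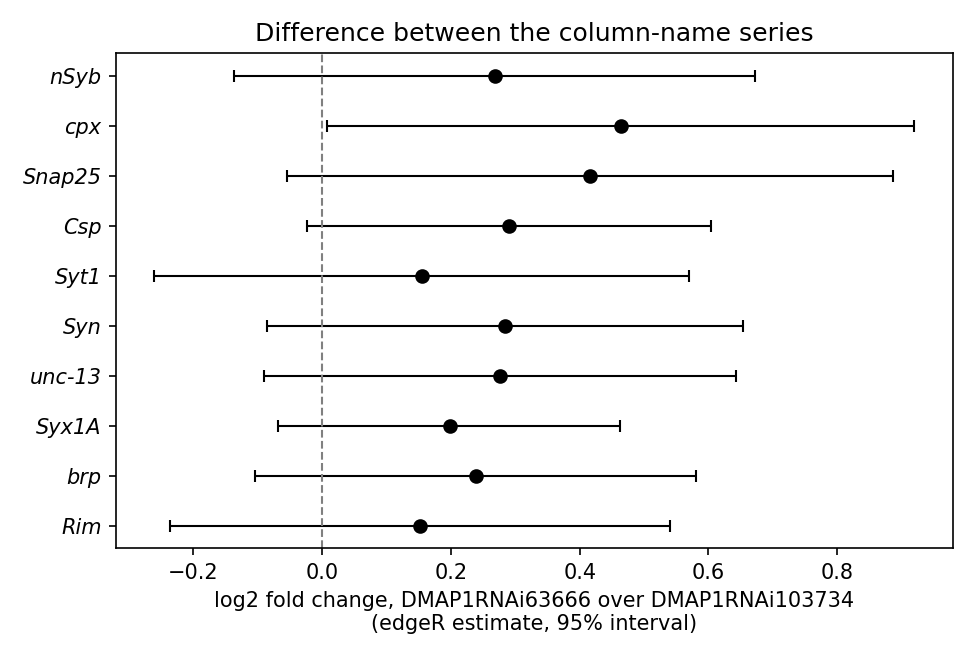
edgeR log2 fold change of the DMAP1RNAi63666 over the DMAP1RNAi103734 series (x axis) for the 10 release genes, with 95% intervals (n = 3 libraries each). All 10 estimates are above 0, from 0.15 to 0.46, and the interval of cpx alone lies above 0, from 0.01 to 0.92.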

How the data were processed

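The deposited values are raw counts for each gene, in read pairs, made by the authors with featureCounts 1.6.5 on the BDGP6 release 84 annotation with strand option 2, a minimum overlap of 10 bases, no multi-mapping reads and no read pairs assigned to several genes, per the file headers. The folder named there points to HISAT2, for which no header or label gives a version. DESeq2 is named in the submitters' processing notes with no role. Another deposited column holds merged exon length. Coordinates are those of the deposited table. A total of 3 columns of per-sample values matched no labelled sample and were not used.

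Gene symbols came from Ensembl release 115 and a table of gene names (17216 rows by identifier, 218 by exon overlap of at least 0.8, 56 unnamed). tomosyn and phm, of the gene lists, matched no row. CPM and TPM were computed from the counts. The series were compared with edgeR 4.0.16 (filterByExpr, minimum count 10, TMM, quasi-likelihood test, Benjamini-Hochberg over all tested genes), after a test on simulated data. The SE of a fold change is its size divided by the square root of the test's F. DESeq2 1.42.0 was an alternative. The others were its size factors, no filter, each library left out, a block on library number, effective length and CPM. The members and lists were chosen with earlier results of these data known. Named genes are the 10 members, DMAP1, any called gene and the 2 of highest mean TPM of 5 vesicle cycle lists, and the 8 genes of most alike profile. Syb, Snap24, Snap29, stnA, stnB, ase, mira, Eaat1, loco and genes that overlap members were named after their values were seen. No 2 libraries agreed within sampling noise (lowest chi-square per degree of freedom 24.6).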

Additional observations from a re-analysis of the deposited data

Results flagged for a closer look

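Of 35 sets of 6 values screened for a library far from the others, 2 were picked out, where chance picks out about 1 in 20 sets, or 1.75 of the 35. The summed CPM of the fat body markers was picked out by library 2 of the DMAP1RNAi103734 series, whose gap to the nearest library was 0.786 of the whole range (557 CPM there, against 34.4 to 146 CPM over the other 5 libraries). The same library had the lowest level of all 10 release genes, and the part of fat body RNA in those levels was not tested. The nSyb to Snap25 TPM ratio was picked out by library 1 of the DMAP1RNAi63666 series, with a gap of 0.643 of the range (1.41, against 1.59 to 1.69 over the other 5 libraries).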

How the results depend on the processing

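None of the 10 release genes was called between the series in edgeR's quasi-likelihood test or under any of the 10 alternatives, with adjusted p from 0.0985 to 0.938, and 98 of 100 recomputed fold changes kept their direction. With 1 library left out, the log2 fold change ran from -0.046 to 0.266 in Syt1 and from -0.027 to 0.273 in Rim, both negative only without library 1 of the DMAP1RNAi63666 series. The number of all tested genes called was 158, against 959 with DESeq2 and 278 with the replicate block. With 1 library left out it ran from 69 to 457, being 457 without DMAP1RNAi63666 library 2 and 75, 83 and 69 without DMAP1RNAi103734 libraries 1, 2 and 3. The library numbers of the column names did not pair the series, the correlations of same-numbered libraries being 0.243, -0.212 and -0.26, and only the libraries numbered 1 correlated best with each other. The order of levels kept 8 of 9 pairs without any 1 library, 7 with effective length, and 4 with CPM, which takes no account of length. Effective length lowered the TPM of unc-13, Syx1A, brp and Rim by more than 1 SD and moved no member by more than 16.6%. The distance from the highest to the lowest library ran from 0.37 to 0.79 with 1 library left out. In counts chosen after the data were seen, all 10 genes were lowest in DMAP1RNAi103734 library 2 under each scaling and without any other library. They were highest in DMAP1RNAi63666 library 1 likewise, except 9 of 10 on CPM without TMM factors, where Syx1A was highest elsewhere.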
